A study of Mus musculus with 8 samples.

Results

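The miR-199 and miR-214 microRNAs (miRNAs) were followed across 8 small RNA libraries from mouse cells in which the PERK pathway had been lowered or its effector ATF4 supplied. The 6 members were the rows named mmu-miR-199a-5p, mmu-miR-199a-3p, mmu-miR-199b-5p, mmu-miR-199b-3p, mmu-miR-214-3p and mmu-miR-214-5p, out of 1978 mature miRNAs listed for the C2C12 hairpin libraries, 605 for the vector and ATF4 libraries and 696 for the P19 libraries. All 6 were listed in the 6 C2C12 libraries, and 5 of the 6 in the 2 P19 libraries, where mmu-miR-214-5p was not listed.

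C2C12 is a mouse skeletal myoblast line that leaves the cell cycle and fuses into myotubes when serum is lowered. Stable C2C12 lines expressed a short hairpin RNA that is a control (shNC) or that targets Perk (shPerk), introduced by lentivirus and selected with puromycin, and were sampled at day 0, before induction, and at day 3 of differentiation. Another pair of C2C12 lines carried an empty vector or the ATF4 coding sequence behind an EF1α promoter and was kept in growth medium. P19 is a mouse embryonal carcinoma line, and the P19 pair carried shNC or shPerk, with no induction state given in the labels. Each condition was 1 library, so no spread between replicates could be measured. Perk mRNA is not a product of small RNA libraries, and the depth of its knockdown was not measured here.

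PERK is a sensor of unfolded protein in the endoplasmic reticulum, and ATF4 is the transcription factor made when PERK is active. A miRNA hairpin is cut into a duplex of a 5p and a 3p arm, and the arm kept by an Argonaute protein pairs with target mRNAs mainly through its seed, bases 2 to 8. The miR-199 and miR-214 hairpins lie on the strands opposite to the dynamin genes, and their miRNAs are known as abundant products of mesenchyme, fibroblasts and developing muscle. Mir199a-2 and Mir214 are processed from the non-coding transcript Dnm3os, whereas Mir199a-1 and Mir199b lie opposite Dnm2 and Dnm1.

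Mature entries for 5 of the 6 members were found in RefSeq on build GRCm38.p6, the build of the authors' mm10 assembly. No entry was found for mmu-miR-199b-5p. The sequences are shown because the identity of the 3p arms decides what the deposited values can separate; capitals mark the seed.
mmu-miR-199a-5p: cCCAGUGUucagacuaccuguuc
mmu-miR-199a-3p: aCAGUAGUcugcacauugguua
mmu-miR-199b-3p: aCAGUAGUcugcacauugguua
mmu-miR-214-3p: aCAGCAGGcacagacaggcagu
mmu-miR-214-5p: uGCCUGUCuacacuugcugugc

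The 22 bases of mmu-miR-199a-3p and mmu-miR-199b-3p held 0 mismatches, so these names stand for a single molecule that 3 hairpins can produce. Their deposited values were identical in 8 of 8 libraries, and they are treated below as 1 shared 3p arm, which leaves 5 distinct members. The miR-214-3p seed was also found in mmu-miR-761, which had 0 reads in the 4 C2C12 hairpin libraries and was not listed in the other 4.

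Mir199a-2 occupies chr1:162217814-162217923 and Mir214 chr1:162223368-162223477, both on the plus strand, in exons of Dnm3os and opposite an intron of Dnm3 (GENCODE M21 on GRCm38). They are 5444 bases apart. Mir199b lies at chr2:32318460-32318569 on the plus strand, opposite an intron of Dnm1. Mir199a-1 lies at chr9:21496495-21496564 on the minus strand, opposite an intron of Dnm2. The hairpins of the miR-199 genes are shown with their annotated mature arms in capitals, since the shared 3p arm can come from each of them.
Mir199a-1: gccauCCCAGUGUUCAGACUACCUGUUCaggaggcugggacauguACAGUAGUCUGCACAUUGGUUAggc
Mir199a-2: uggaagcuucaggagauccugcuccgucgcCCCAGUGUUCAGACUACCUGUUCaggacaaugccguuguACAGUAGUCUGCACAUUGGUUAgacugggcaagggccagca
Mir199b: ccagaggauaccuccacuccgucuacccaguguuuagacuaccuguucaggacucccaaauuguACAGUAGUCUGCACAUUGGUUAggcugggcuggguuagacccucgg

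Because miR-199a-5p is identical in Mir199a-1 and Mir199a-2, its reads could not be divided between chromosomes 9 and 1. Only the names miR-199b-5p, miR-214-3p and miR-214-5p belong to a single gene each. For miR-199b-5p this rests on the name, since no mature entry was found. Whether reads of the near-identical miR-199a-5p were counted as miR-199b-5p was not tested. mmu-miR-3120-3p and mmu-miR-3120-5p, from the strand opposite Mir214, were listed in none of the tables.

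The C2C12 hairpin libraries held 11321915 (shNC day 0), 8800977 (shPerk day 0), 11993448 (shNC day 3) and 9428246 (shPerk day 3) reads on miRNAs, given here as CPM, counts scaled to a common total per library. The other 4 libraries were deposited as RPM, reads scaled in the same way by the authors. Muscle miRNAs (miR-1a, miR-133a, miR-133b and miR-206; 4 of 4 listed) summed to 19165 CPM in shNC and 3839 CPM in shPerk cells at day 0, and to 88480 and 24312 CPM at day 3. Markers of embryonal carcinoma and embryonic stem cells (10 miRNAs) summed to 213276 RPM in P19 shNC and 445476 RPM in P19 shPerk, and to at most 0.707 CPM in the C2C12 hairpin libraries. The most abundant miRNA was miR-21a-5p in the 6 C2C12 libraries and miR-302b-3p in both P19 libraries.

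The miR-199 and miR-214 members made up several percent of all miRNA reads in C2C12 cells and a trace of them in P19 cells. With the shared 3p arm counted once, they held 5.91% of miRNA reads in shNC cells at day 0, 7.06% in shPerk cells at day 0, 7.27% in shNC cells at day 3 and 5.62% in shPerk cells at day 3. The vector library had 5.33% and the ATF4 library 6.96%. In P19 cells the share was 0.00902% with shNC and 0.0147% with shPerk. The C2C12 and P19 values did not overlap, and how many other miRNAs separate these lines in this way was not counted. In such bulk RNA, fewer cells of a type and less RNA per cell cannot be told apart.

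Within C2C12 cells the 5 distinct members had the same order of abundance in all 6 libraries. The shared 3p arm, which ranked between the fifth and the seventh most abundant miRNA, had 32928 CPM in shNC and 44131 CPM in shPerk cells at day 0. At day 3 it had 48992 CPM in shNC and 34393 CPM in shPerk cells, and it stood at 31107 RPM with vector and 44693 RPM with ATF4. It was lowest in the vector library and highest in the shNC library of day 3.

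Next came mmu-miR-199a-5p, the partner arm of the miR-199a hairpins. Its levels were 24496 and 24882 CPM in shNC and shPerk cells at day 0, 22132 and 20081 CPM at day 3, and 20291 and 22793 RPM with vector and ATF4. This member was the steadiest of the 5, with a 1.24-fold range over the 6 C2C12 libraries, against 1.57-fold for the shared 3p arm.

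mmu-miR-214-3p, the more abundant arm of Mir214, stood at 1092 and 1032 CPM at day 0, 1099 and 919 CPM at day 3 (shNC and shPerk), 1308 RPM with vector and 1311 RPM with ATF4, a 1.43-fold range. mmu-miR-214-5p, the other arm of the same hairpin, had 593 and 499 CPM at day 0, 399 and 725 CPM at day 3, and 501 and 653 RPM with vector and ATF4. It was lowest in shNC and highest in shPerk cells at day 3, and its range was 1.82-fold.

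mmu-miR-199b-5p, the only member assigned to Mir199b alone, by its name, was the rarest in C2C12 cells and the most variable, with a 3.88-fold range. Its reads were not checked for miR-199a-5p reads assigned to it. It had 321 reads (28.4 CPM, 95% interval 25.3 to 31.6) in shNC cells and 284 reads (32.3 CPM, 28.6 to 36.2) in shPerk cells at day 0. At day 3 it had 1318 reads (110 CPM, 104 to 116) in shNC cells and 341 reads (36.2 CPM, 32.4 to 40.2) in shPerk cells. The vector and ATF4 libraries held 57.9 and 92.9 RPM. The shNC library of day 3 stood apart from the other 3 hairpin libraries, whose levels lay close together. The vector and ATF4 libraries, from cells kept in growth medium, lay between. These Clopper-Pearson intervals, like all intervals below, cover the counting error of PCR-amplified reads and not the spread between cultures.

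The order was different in P19 cells. The shared 3p arm was at 75.03 RPM with shNC and 123 RPM with shPerk, mmu-miR-199a-5p at 9.60 and 16.2 RPM, and mmu-miR-199b-5p at 5.56 and 6.73 RPM. mmu-miR-214-3p was listed at 0 with shNC and at 1.12 RPM with shPerk, so in P19 cells it ranked below miR-199b-5p, which was the lowest of the 5 in C2C12 cells.

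**Figure D1:**
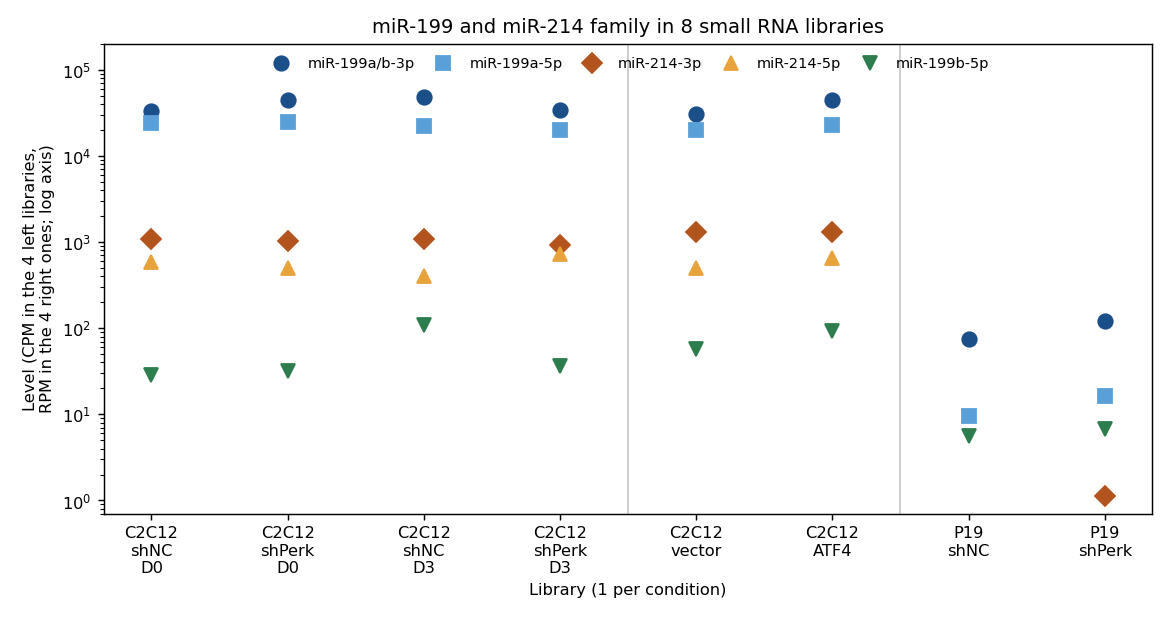
Level of each distinct member (log axis, CPM for the 4 C2C12 hairpin libraries and RPM for the other 4) in the 8 libraries, 1 point per library. The shared 3p arm and miR-199a-5p lie at 20081 or above in the 6 C2C12 libraries and at 123 RPM or below in P19, miR-199b-5p is highest in shNC cells at day 3 (110 CPM), and no point is drawn for miR-214-3p in P19 shNC (listed at 0) or for miR-214-5p in P19 (not listed).

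Log2 fold changes were computed with TMM normalisation, a scaling that assumes that most miRNAs do not differ between the 2 libraries compared. Calls were made beyond a log2 fold change of 1 in either direction, a rule of size for 2 libraries and not a test of the condition. The share of all tested miRNAs past the same limit is given beside each count.

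In the PERK knockdown at day 3, 2 of the 5 distinct members were called, in opposite directions, beside 44.9% of the 575 miRNAs tested, so the share of members called was near that of all miRNAs. mmu-miR-199b-5p was lower in shPerk cells, with a log2 fold change of -1.27 (-1.45 to -1.10). mmu-miR-214-5p was higher, with a log2 fold change of 1.19 (1.14 to 1.25). Of the miRNAs tested, 65.7% differed by less than mmu-miR-199b-5p and 61.9% by less than mmu-miR-214-5p. The remaining values were 0.19 for mmu-miR-199a-5p, -0.18 for the shared 3p arm and 0.08 for mmu-miR-214-3p.

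The median absolute log2 fold change of the 5 members was 0.19, against 0.87 over all miRNAs tested and 0.73 over the 182 tested miRNAs that averaged 100 CPM or more. Scaled to total reads, the median of all miRNAs moved from 0.01 to -0.32. mmu-miR-214-5p was then at 0.86, below the limit of a call, while mmu-miR-199b-5p was at -1.60. On that scale mmu-miR-199a-5p was at -0.14 and mmu-miR-214-3p at -0.26, so the direction of these small differences was set by the scaling.

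At day 0, before induction, 0 of the 5 distinct members were called after PERK knockdown, beside 35.9% of the 602 miRNAs tested. The largest difference was that of the shared 3p arm, at 0.56. mmu-miR-199b-5p was at 0.32 (0.08 to 0.56), mmu-miR-199a-5p at 0.16, mmu-miR-214-3p at 0.05 and mmu-miR-214-5p at -0.11. Under total-count scaling mmu-miR-214-3p was at -0.08.

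Both called members thus had opposite signs on the 2 days. The knockdown difference at day 3 minus that at day 0 was -1.59 (-1.88 to -1.30) for mmu-miR-199b-5p, 1.31 (1.23 to 1.38) for mmu-miR-214-5p and -0.73 for the shared 3p arm. For mmu-miR-199a-5p it was 0.04 and for mmu-miR-214-3p 0.02 (-0.03 to 0.08).

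Markers of blood cells differed in the same comparisons. The 4 miRNAs of that list (miR-142a-3p, miR-142a-5p, miR-223-3p and miR-451a) summed to 11.2 CPM in shNC and 350 CPM in shPerk cells at day 0 and to 9.67 and 122 CPM at day 3, with 1 of the 4 at 0 in each library but that of shPerk cells at day 3, where 0 were. The arms of miR-142a changed most. At day 0, miR-142a-3p had 28 and 1977 reads and miR-142a-5p 28 and 1026 (shNC and shPerk). Day 3 reads were 60 and 665 for miR-142a-3p and 24 and 414 for miR-142a-5p. Of the 3 markers tested, 2 were called higher at day 0, beside 94 of all 602 miRNAs. At day 3 all 3 were, beside 126 of 575. The muscle list was lower in shPerk cells on both days. Of its 4 miRNAs, 3 were called lower at day 0, beside 122 of all 602 tested, and 4 at day 3, beside 132 of 575. The part of these differences in the values of miR-199 and miR-214 was not tested.

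Differentiation of the control cells was accompanied by a higher level of miR-199b-5p. Between day 0 and day 3 of shNC cells, 1 of the 5 distinct members was called, beside 29.0% of the 593 miRNAs tested. This was mmu-miR-199b-5p, at a log2 fold change of 2.22 (2.04 to 2.40), and 94.1% of the tested miRNAs differed by less. The shared 3p arm was at 0.84, mmu-miR-214-3p at 0.27, mmu-miR-199a-5p at 0.12 and mmu-miR-214-5p at -0.31. Under total-count scaling mmu-miR-199b-5p was still at 1.95, and mmu-miR-199a-5p was at -0.15.

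In shPerk cells the same interval gave 0 called members of 5, beside 33.9% of the 573 miRNAs tested. mmu-miR-199b-5p was at 0.52 (0.29 to 0.76), mmu-miR-214-5p at 0.90, mmu-miR-214-3p at 0.19, mmu-miR-199a-5p at 0.05 and the shared 3p arm at -0.00 (-0.01 to 0.01). These comparisons share libraries with those of the knockdown, so their values are not independent of them.

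With ATF4 overexpression, 0 of the 5 distinct members passed the limit of a call, beside 23.5% of the 605 miRNAs tested. All 5 values were above 0, beside a median of -0.00 for all miRNAs, whose share above 0 was not counted. The log2 fold changes were 0.74 for mmu-miR-199b-5p, 0.59 for the shared 3p arm, 0.44 for mmu-miR-214-5p, 0.23 for mmu-miR-199a-5p and 0.07 for mmu-miR-214-3p. With upper-quartile scaling the last of these was at -0.31 and mmu-miR-199a-5p at -0.15, while the other 3 stayed above 0. The muscle miRNAs summed to 2467 RPM with vector and 3790 RPM with ATF4, with 2 of 4 called higher, beside 88 of all 605 tested. Among them miR-1a-3p was at 5.40, from 6.42 and 259 RPM. The blood cell markers summed to 72.8 and 47.8 RPM, with 2 of 4 called lower, beside 54 of all 605 tested. These were miR-142a-3p at -1.78, from 7.66 and 2.14 RPM, and miR-142a-5p at -1.38, from 7.37 and 2.71 RPM. Such values are low, and miR-223-3p was listed at 0 with ATF4. The part of these differences in the values of miR-199 and miR-214 was not tested. The read totals behind these values were not used here.

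In P19 cells, 2 of the 4 distinct members listed were called higher with shPerk, beside 35.3% of the 696 miRNAs tested. They were mmu-miR-199a-5p, at a log2 fold change of 1.36, and the shared 3p arm, at 1.32. mmu-miR-199b-5p was at 0.88. mmu-miR-214-3p, listed at 0 in shNC cells, gets no fold.

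Both P19 calls depended on a scaling between the libraries beyond the RPM. In the order given, they were at 1.22 and 1.18 with upper-quartile scaling and at 1.40 and 1.36 with DESeq2 size factors. Scaled to the RPM values as deposited, mmu-miR-199a-5p was at 0.75, the shared 3p arm at 0.71 and mmu-miR-199b-5p at 0.28. The median of all miRNAs then moved from -0.04 to -0.65. The stem cell markers took up 213276 RPM of the shNC and 445476 RPM of the shPerk library, and epithelial markers (4 miRNAs of the miR-200 family, 1 at 0 in shNC) summed to 296 and 1263 RPM. The part of these differences in the calls was not tested. From the steps between low RPM values, 1 RPM corresponded to about 7.92 reads in the shNC and 4.46 reads in the shPerk library. mmu-miR-199a-5p then rested on about 76.0 and 72.0 reads, mmu-miR-199b-5p on 44.0 and 30.0 reads, and mmu-miR-214-3p in shPerk cells on 4.99 reads.

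**Figure D2:**
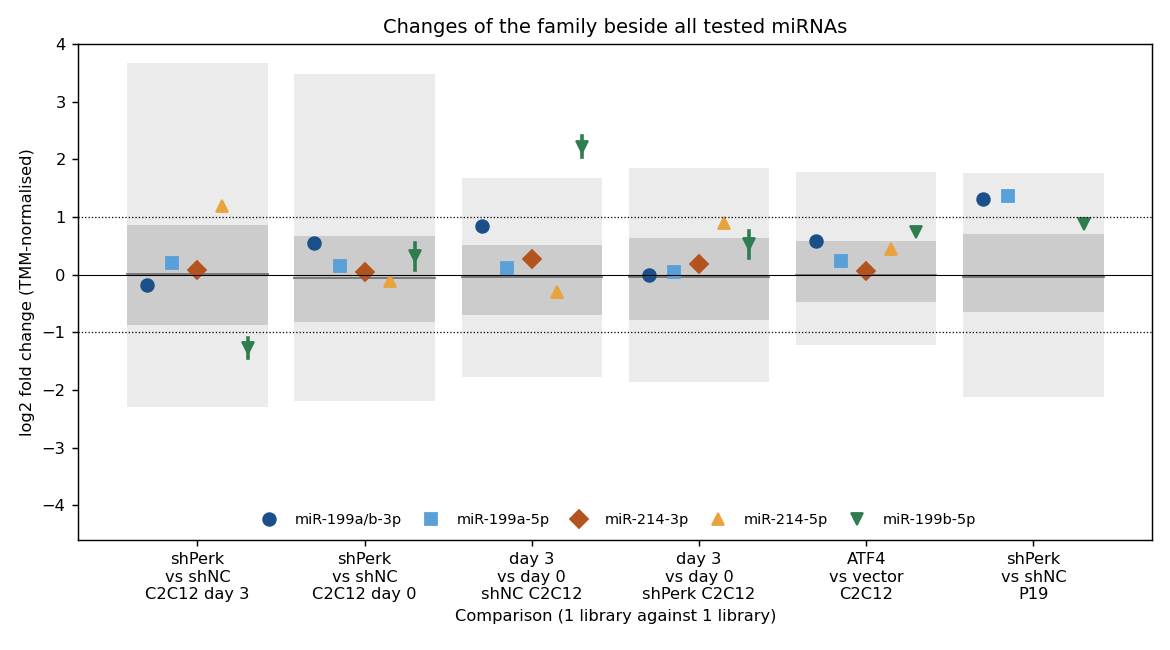
Log2 fold change (TMM-normalised) of each distinct member in the 6 comparisons, with vertical lines for the 95% counting intervals in the 4 comparisons of counted reads, over grey bands for all miRNAs tested (light, 5th to 95th percentile; dark, 25th to 75th; line, median) and dotted lines at the limit of a call. miR-199b-5p is the member farthest from 0 in shNC differentiation (2.22) and in the day 3 knockdown (-1.27), and no point is drawn for miR-214-3p in P19, which was listed at 0 in shNC cells.

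The balance of miR-199b-5p and miR-199a-5p can be read within a library, without scaling between libraries. miR-199b-5p made up 0.116% (0.103 to 0.129) of the reads of these 5p arms in shNC cells and 0.130% (0.115 to 0.146) in shPerk cells at day 0. At day 3 it made up 0.494% (0.468 to 0.521) in shNC cells and 0.180% (0.161 to 0.200) in shPerk cells. The intervals of both day 0 libraries overlapped, and that of shNC cells at day 3 lay above the other 3.

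On the log2 scale, the odds of a miR-199b-5p read were 2.10 (1.92 to 2.28) higher at day 3 than at day 0 in shNC cells and 0.47 (0.24 to 0.71) higher in shPerk cells. With PERK knockdown they were -1.46 (-1.64 to -1.29) at day 3 and 0.16 (-0.07 to 0.40) at day 0. The interval at day 0 includes 0. Set against the shared 3p arm in place of miR-199a-5p, miR-199b-5p was higher by 1.38 (1.20 to 1.56) at day 3 than at day 0 in shNC cells, and the knockdown value at day 0 was -0.24 (-0.47 to -0.00081), of opposite sign and with an interval that excludes 0. Over the same days of shNC cells the reads of mmu-miR-199a-5p went from 277346 to 265434.

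The 5p arms of miR-199a and miR-199b are near-identical, and how many mismatches the annotation allowed is not given in the sources used here. A transfer of reads from one name to the other was not tested. The vector and ATF4 libraries had shares of 0.285% and 0.406%. In P19 cells the shares were 36.7% with shNC and 29.4% with shPerk, from the few reads given above.

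**Figure D3:**
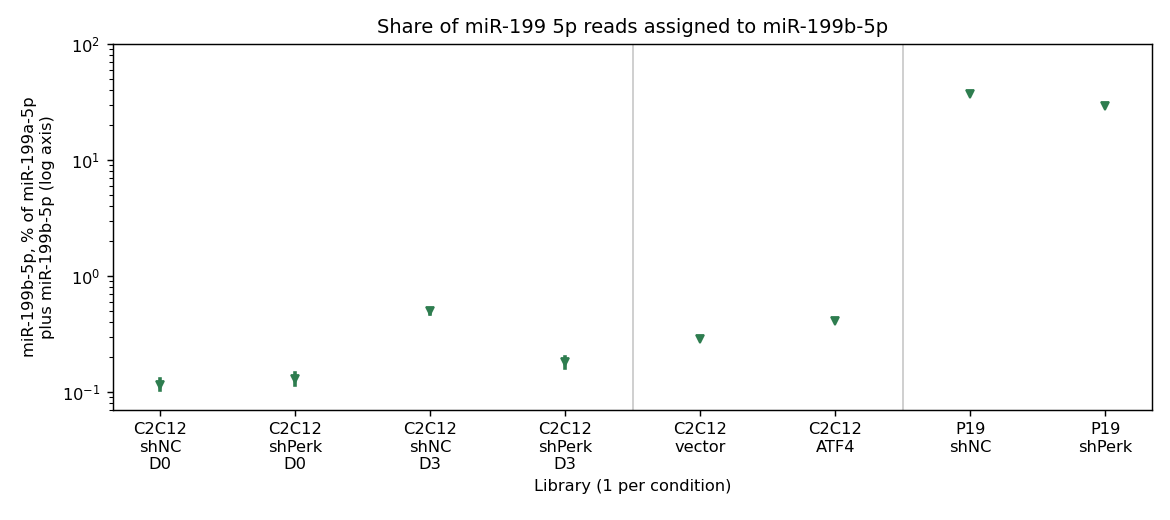
Share of miR-199b-5p in the summed miR-199a-5p and miR-199b-5p values of each library, in percent on a log axis, with 95% counting intervals in the 4 C2C12 hairpin libraries. The shNC library of day 3 (0.494%) lies above the other 3 hairpin libraries (0.116 to 0.180%), and both P19 libraries lie at 29.4% or above.

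In raw reads, the shared 3p arm gained 214774 between day 0 and day 3 of shNC cells, and miR-199b-5p gained 997. These gains are not scaled to the library totals of 11321915 and 11993448 reads. The part of each hairpin in the shared 3p arm was not tested. The arm ratio of miR-199a (5p reads for each 3p read, the 3p being shared with miR-199b) was 0.744 in shNC and 0.564 in shPerk cells at day 0, 0.452 and 0.584 at day 3, and 0.652 and 0.510 with vector and ATF4. The 3p arm was thus the more abundant in all 6 C2C12 libraries, least so in shNC cells at day 0. In P19 cells the ratio was 0.128 with shNC and 0.132 with shPerk, below each of the C2C12 values.

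The arms of miR-214 come from a single hairpin, and their ratio differed most between the day 3 libraries. There were 0.543 5p reads for each 3p read in shNC and 0.484 in shPerk cells at day 0, and 0.363 and 0.789 at day 3. With vector and ATF4 the ratios were 0.383 and 0.498. The 3p arm led in all 6 C2C12 libraries, and the ratio was lowest in shNC and highest in shPerk cells at day 3.

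With PERK knockdown, the log2 arm ratio of miR-214 was higher by 1.12 (1.05 to 1.18) at day 3 and differed by -0.17 (-0.23 to -0.10) at day 0. From day 0 to day 3 it differed by -0.58 (-0.64 to -0.52) in shNC and by 0.70 (0.64 to 0.77) in shPerk cells. At day 3 the raw 5p reads were 4789 in shNC and 6834 in shPerk cells, and the raw 3p reads were 13175 and 8665. Those libraries held 11993448 and 9428246 reads. The TMM-scaled log2 fold changes were 1.19 for the 5p arm and 0.08 for the 3p arm.

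Such shifts were common among other miRNAs. Of the 88 miRNAs with at least 50 reads on both arms in both day 3 libraries, 31.8% had an arm ratio that differed beyond 1 on the log2 scale, and the shift of miR-214 was number 22 in order of absolute size. The same limit was passed by 9.28% of 97 miRNAs in the day 0 knockdown, 9.52% of 105 in shNC differentiation and 16.7% of 90 in shPerk differentiation. Neither miR-214 nor miR-199a passed it in those 3 comparisons. miR-199b, set against the shared 3p arm, passed it in shNC differentiation (1.38, number 5 of 105) and in the day 3 knockdown (-1.09, number 24 of 88).

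**Figure D4:**
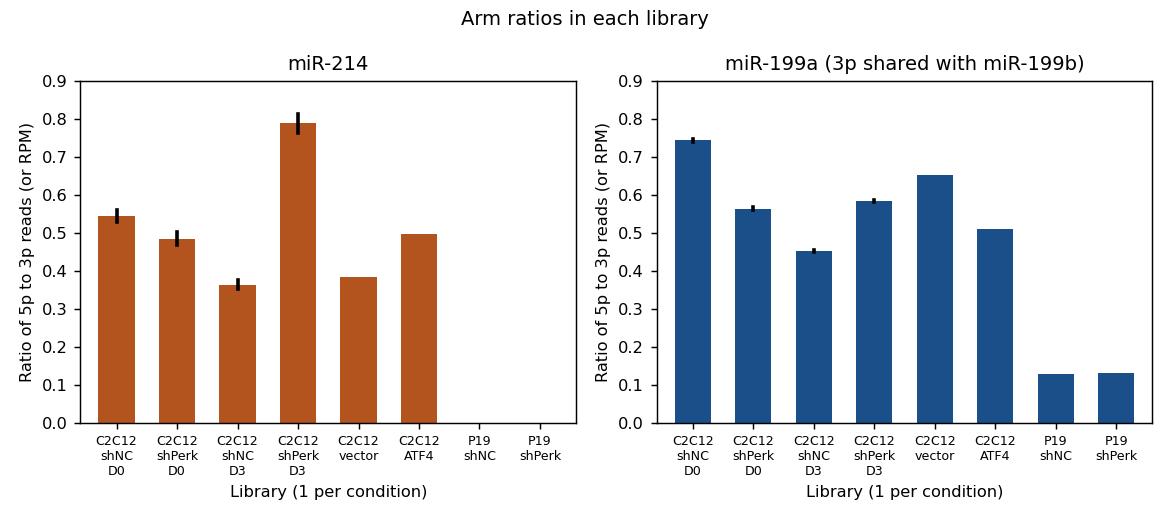
Ratio of 5p to 3p reads (or RPM) of miR-214 (left) and of miR-199a (right) in each library, on axes from 0, with black lines for the 95% counting intervals in the 4 C2C12 hairpin libraries. The miR-214 ratio is lowest in shNC (0.363) and highest in shPerk (0.789) cells at day 3, and no bar is drawn for miR-214 in P19, where miR-214-5p was not listed.

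mmu-miR-199a-5p and mmu-miR-214-3p, of which the first can come from Dnm3os and the second does, were compared as a ratio within each library. There were 22.4 and 24.1 miR-199a-5p reads for each miR-214-3p read at day 0 (shNC and shPerk), 20.1 and 21.8 at day 3, 15.5 with vector and 17.4 with ATF4. The single P19 value, in shPerk cells, was 14.4. The log2 difference with PERK knockdown was 0.12 (0.08 to 0.16) at day 3 and 0.10 (0.06 to 0.14) at day 0.

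Likeness between patterns was measured as the root mean square difference in log2 fold change over 4 comparisons (both C2C12 knockdowns, shNC differentiation and ATF4), which share libraries, so it is a description. Between members the closest pair was mmu-miR-199a-5p and mmu-miR-214-3p, at 0.14, and the farthest was mmu-miR-199b-5p and mmu-miR-214-5p, at 1.78. The distance was 0.66 between the miR-214 arms and 0.49 between miR-199a-5p and the shared 3p arm. Both members of the closest pair changed little in these comparisons, and miR-100-5p, outside the family, was nearer to mmu-miR-199a-5p, at 0.11.

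Among 288 other miRNAs that averaged 10 or more (CPM or RPM) in each comparison, the nearest to mmu-miR-199b-5p were miR-322-3p (0.48), miR-322-5p (0.54) and miR-542-3p (0.62), products of the same X-linked cluster. In that order, their log2 fold changes were 1.54, 1.56 and 1.58 in shNC differentiation. In the day 3 knockdown they were -0.67, -1.69 and -1.17. The day 0 knockdown values were -0.01, -0.41 and -0.53, where mmu-miR-199b-5p was at 0.32. The median distance of all candidates from mmu-miR-199b-5p was 1.52.

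Nearest to mmu-miR-214-5p was miR-155-3p (0.12), the rarer arm of miR-155, with log2 fold changes of 1.33 in the day 3 knockdown and -0.46 in shNC differentiation. It was followed by miR-455-3p (0.23) and miR-361-3p (0.26). For mmu-miR-214-3p the nearest were miR-99b-5p (0.14), let-7g-5p (0.14) and miR-155-5p (0.15). The nearest to mmu-miR-199a-5p were miR-100-5p (0.11), miR-126a-3p (0.15) and miR-101b-3p (0.15), and those to the shared 3p arm were miR-872-5p (0.17), miR-30c-5p (0.25) and miR-191-5p (0.26).

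A list of 18 other miRNAs abundant in mesenchyme, fibroblasts or smooth muscle was set beside the members. Its summed level ran from 296821 to 344922 CPM or RPM over the 6 C2C12 libraries and was 34873 and 26515 RPM in P19 shNC and shPerk, where 17 of the 18 were listed. The list includes miR-21a-5p, the most abundant miRNA in C2C12 cells, which makes up most of the C2C12 sums. Alone it held 26.2% of miRNA reads in shNC cells at day 0 and 18.0% at day 3, the highest and the lowest of these sums. Calls in the day 3 knockdown were 2 higher and 1 lower of the 18, beside 126 higher and 132 lower of all 575 tested. The median was 0.21 against 0.01 for all miRNAs. The day 0 knockdown had 4 higher and 0 lower, beside 94 and 122 of 602, with a median of 0.50 against -0.06.

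In shNC differentiation 6 of the list were called higher and 1 lower, beside 74 and 98 of all 593 tested (median 0.46 against -0.04 for all). The shPerk differentiation had 2 higher and 2 lower, beside 97 and 97 of 573 (0.36 against -0.05). ATF4 gave 1 higher and 1 lower, beside 88 and 54 of 605 (0.23 against -0.00). P19 knockdown gave 7 higher and 1 lower of 17, beside 123 and 123 of 696 (0.53 against -0.04).

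miR-218-5p, whose genes lie in introns of the Slit axon guidance genes, had the largest absolute log2 fold change of the list in all 5 C2C12 comparisons. It had 10996 reads in shNC and 79858 in shPerk cells at day 3, a log2 fold change of 3.54, and 2498 and 25625 reads at day 0, one of 3.86. It was at 2.32 in shNC and 1.90 in shPerk differentiation and at 2.47 with ATF4. The next in order were miR-10b-5p at 2.10 in the day 3 knockdown, from 23 and 62 reads, miR-222-3p at 1.50 in the day 0 knockdown and -1.43 in shPerk differentiation, and miR-152-3p at 1.60 in shNC differentiation. With ATF4, miR-10b-5p was at -1.02, from 7.66 and 3.62 RPM. In P19 knockdown the leading 2 were miR-143-3p at 2.67, from 28.2 and 118 RPM, and miR-10b-5p at 1.65, from 1617 and 3340 RPM.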

How the data were processed

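Small RNA from 8 cultures, 1 library each, was sequenced by a company after ligation of linkers at both ends, reverse transcription, amplification and gel selection, and was annotated with bowtie against the mouse genome (mm10, GRCm38 per the labels). The bowtie version, the miRNA release, the mismatches allowed and the treatment of reads matching several miRNAs are not given in the sources used here. The authors deposited raw counts per mature miRNA for the 4 C2C12 hairpin libraries. For the vector, ATF4 and P19 libraries the authors deposited RPM values, where values under 1 RPM are listed at 0. The fold changes, p-values and q-values of the authors in the same tables were not used.

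For each pair of libraries, miRNAs that reached 1 CPM or RPM in either one entered the comparison. TMM factors from edgeR 4.0.16 (R 4.3.3) scaled the log2 fold changes, and were computed on the RPM values for the ATF4 and P19 pairs, with values at 0 set to 1 RPM. A call is a log2 fold change beyond 1, and with 1 library per condition no replicate test was run and no p-value is given. Intervals are 95% Clopper-Pearson intervals on reads, and exact conditional (Fisher) intervals for ratios between libraries. Intervals for a difference of 2 log2 fold changes are normal approximations from the summed reciprocals of the reads in the libraries involved, as if these counts were independent.

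The fold change step was tested on simulated data. Alternatives were total-count, DESeq2 1.42.0 and upper-quartile scaling, no filter, another prior count or value for 0, leaving out miR-199b-3p, a binomial test and edgeR's exact test with an assumed biological variation of 0.4, plus other denominators for the ratios. All members are named, with the 3 nearest miRNAs by pattern and the 2 of the mesenchyme list with the largest change in each comparison. The members, lists and settings were chosen with earlier results of these data known.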

Additional observations from a re-analysis of the deposited data

Results flagged for a closer look

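Each item here had opposite directions in the 2 comparisons set side by side. None of these differences was tested, since each comparison is 1 library against 1 library. For mmu-miR-199b-5p, the PERK knockdown log2 fold change at day 3 minus that at day 0 in C2C12 cells was -1.59, and that at day 3 minus the P19 value was -2.15 (-1.27 in C2C12 and 0.88 in P19). The P19 value came from 5.56 and 6.73 RPM and was 0.28 when scaled to the RPM as deposited. For mmu-miR-214-5p, the day 3 minus day 0 knockdown value was 1.31, and the differentiation value in shNC minus that in shPerk cells was -1.20 (-0.31 and 0.90). The shared 3p arm (mmu-miR-199a-3p) had a day 3 minus day 0 knockdown value of -0.73 and a day 3 C2C12 minus P19 knockdown value of -1.49. The P19 value behind the latter, 1.32, was 0.71 when scaled to the RPM as deposited. The differentiation value of the shared 3p arm in shNC minus that in shPerk cells was 0.84, where the shPerk value of -0.00 had an interval that includes 0 and was 0.04 with DESeq2 size factors and 0.09 without a filter. The C2C12 comparisons share libraries, and the blood cell and stem cell markers that differ between the same libraries are given with the results.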

How the results depend on the processing

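No paired analysis was possible because each condition has 1 library, and for the same reason no replicate was left out. The calls of members moved with the scaling and with the assumed variation. Under total-count scaling 1 member was called in the day 3 knockdown and 0 in the P19 knockdown. Under the exact test of edgeR and a coefficient of biological variation set to 0.4, 0 members were called in the day 3 knockdown and 0 in shNC differentiation, where 51 and 7 of all miRNAs were. Of 174 values of single members under alternatives, 158 stayed the same, 3 lost a call, 1 gained one, 0 called values changed sign and 12 uncalled values moved. The gained call was mmu-miR-214-3p in P19, whose value is set by the number put in place of 0 and is not given.

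With the shared 3p arm in place of miR-199a-5p, the log2 difference of miR-199b-5p was -1.09 (day 3 knockdown), -0.24 (day 0 knockdown), 1.38 (shNC differentiation), 0.16 (ATF4) and -0.43 (P19). With both 5p arms summed, the miR-199a arm ratio in P19 differed by -0.12. With both miR-214 arms summed, the ratio of miR-199a-5p to miR-214 differed by -0.27 and 0.16 in the day 3 and day 0 knockdowns, 0.023 and -0.41 in shNC and shPerk differentiation and 0.050 with ATF4. Without the most abundant miRNA, the members held 8.02, 9.06, 8.87 and 7.12% of reads (shNC and shPerk at day 0, then at day 3), 6.75% with vector, 8.66% with ATF4, and 0.00977 and 0.0179% in P19 shNC and shPerk. The causes were not tested beyond the construction of each alternative.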
